A study of Mus musculus with 6 samples.

Results

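The set holds 35 mouse genes of the p53 pathway, taken by name from the 54525 genes of the deposited table. It has 4 regulators (Trp53 itself, Mdm2, Mdm4 and Usp7) and 31 genes known as direct p53 targets. The targets were grouped by what their products do, with 8 in arrest and checkpoint control, 5 in DNA repair, 9 in cell death, 3 in metabolism and 6 with other functions. Counts were high enough to test 34 of the 35; Gdf15 was not tested.

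RNA sequencing measured the total RNA of 6 Th17 cultures from mice of the C57BL/6 strain. Genotype iCD4-PRMT5delta/delta, called KO here, had 3 cultures, and iCD4-PRMT5fl/fl, called WT although its name shows the floxed allele, also had 3. All 6 began as naive CD4 T cells of spleen and lymph nodes and grew for 72 hours on coated anti-CD3/CD28 with rh-TGFβ and m-IL6, the cytokines that push CD4 T cells to the IL-17-producing type. Prmt5 encodes an arginine methyltransferase that acts on histones, splicing factors and p53. The labels do not spell out what drives the deletion in iCD4 mice or when it was induced. The deposited headers give each WT library a single number and each KO library a pair of numbers joined by the word plus, with a number that all 3 KO libraries share. What these numbers mean is not given in the sources used here, so whether the KO cultures shared cells or mice cannot be told, and p-values measure only the spread between these 6 samples.

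The transcription factor p53 is made continually and destroyed continually, because the ubiquitin ligase Mdm2 and its relative Mdm4 bind it and hold it down. DNA damage, ribosome stress and other insults free the protein from this hold, and it then binds pairs of short adjoining sites near genes that stop the cell cycle, repair DNA, alter metabolism or kill the cell. Several of these targets, Mdm2 among them, feed back and switch p53 off again. In activated T cells, which divide fast, p53 is known as a restraint on expansion. Much of the control of p53 acts on the protein, which was not measured here.

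Levels are CPM (library-scaled counts) after TMM scaling, and differences are log2 changes of KO over WT ± SE from edgeR's quasi-likelihood test, with Benjamini-Hochberg adjustment over all 16006 tested genes. The threshold for a call was an adjusted p under 0.05. Library totals ran from 36011906 to 43141474 counts. The deleted gene itself stood at 52.4, 43.8 and 52.9 CPM in KO replicates 1 to 3, against 109, 137 and 118 CPM in WT replicates 1 to 3. That was a log2 change of -1.29 ± 0.11 (edgeR adjusted p = 0.00012), with a two-sided exact permutation p of 0.1, the smallest that 3 against 3 samples allow. The KO level of Prmt5 was thus 41.0% of the WT level, counted over the whole gene. Principal components 1 and 2 held 75.3% and 9.53% of the variance. The counts of WT replicate 2 differed from those of WT replicates 1 and 3 by a mean chi-square per gene of 52.2 and 39.9. Between WT replicates 1 and 3 that value was 10.8. Y-linked reads were present in all 3 KO libraries and absent from all 3 WT libraries, so that sex and genotype cannot be told apart. Markers of T cells were present in every library, with summed levels of 2693 to 2763 CPM in KO and 2309 to 2513 CPM in WT. Of these 8 markers 3 were called higher (Cd3e, Lat and Lck), against 21.7% of all tested genes. Cd28 was called lower, against 20.9% of all tested genes, at a mean of 400 CPM in KO and 562 CPM in WT. The Y-linked level of KO replicate 2 was 0.13 of that of KO replicate 3. Results after adjustment for the level of Y-linked reads are also given below. Because WT libraries held no such reads, the slope of that adjustment comes from the KO libraries alone. The adjusted difference thus leans on KO replicate 2 and does not separate sex from genotype. Each member's result without WT replicate 2, and from KO replicate 2 alone against the WT libraries, is given below where it changed the call. A value in parentheses after an alternative is the adjusted p under it.

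Target genes of p53 were higher in KO cells in most cases, and Trp53 mRNA did not pass the test. Of the 34 tested members 24 rose in KO, against 21.7% of all tested genes. A single member, Fbxw7, fell, against 20.9% of all tested genes. The other 9 did not pass the test, while 42.5% of all tested genes passed it in either direction. A log2 change of at least 1 upward was reached by 11 called members, against 9.31% of all tested genes. The median log2 change of the tested members was 0.53, within a range of -0.43 to 4.46, and the median of all tested genes was -0.0026. In 25 of the 34 tested members all 3 KO libraries lay above all 3 WT libraries, a pattern that 28.2% of all tested genes showed. In 2 members, Fbxw7 and Plk3, all 3 KO libraries lay below all 3 WT libraries, against 27.5% of all tested genes. In bulk RNA, a change in how many cells express a gene and a change in RNA per cell cannot be told apart. The members were picked as a pathway with results of these data already known, so the counts describe the set and carry no test of their own. The same holds for the function groups below, of 3 to 9 genes each, for which these shares are also the background.

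**Figure D1:**
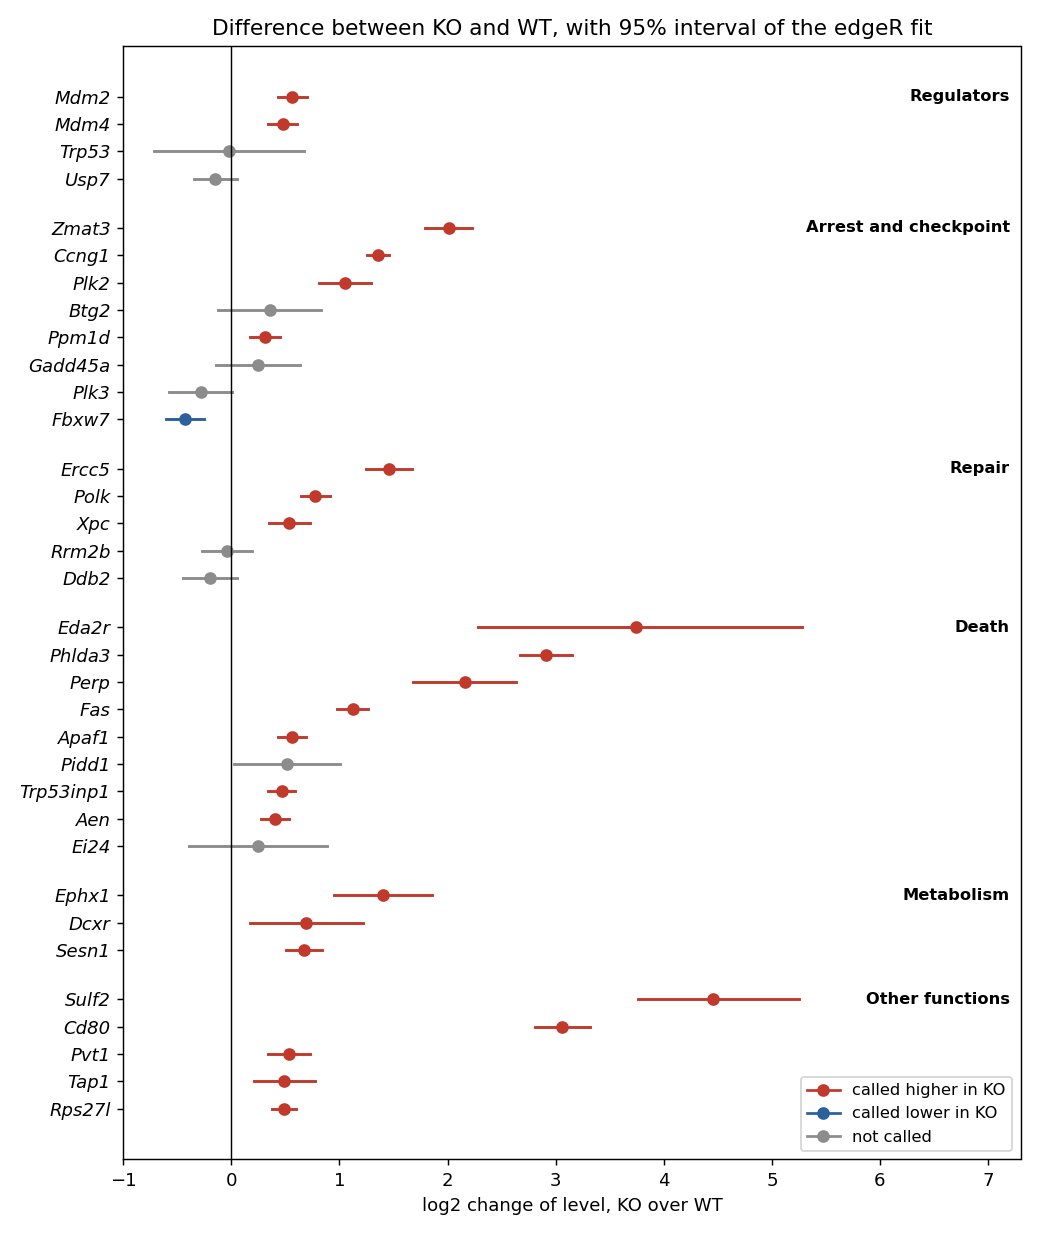
Log2 change of level, KO over WT, for the 34 tested members, grouped by function, with points at the edgeR estimate and bars spanning its 95% interval. Red marks the 24 members called higher in KO, blue the 1 called lower (Fbxw7) and grey the 9 not called; the largest changes, Sulf2 and Eda2r, also have the widest intervals among the called genes.

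The promoter windows of 6 members show where letter matches to the p53 site were found, or were not found, beside genes that are followed below. Each window is from RefSeq on GRCm38.p6, runs from 250 bases before to 50 after an annotated transcription start, and is written on the gene's own strand. Capitals mark each exact p53 decamer (the consensus unit of the p53 site, searched on both strands, which it reads alike) and each full site, here a pair of adjoining decamers with no spacer, both 4-base cores intact and up to 3 mismatches. The windows are Rps27l at chr9:66946163-66946462 (plus strand), Aen at chr7:78895808-78896107 (plus strand), Ccng1 at chr11:40755237-40755536 (minus strand), Mdm2 at chr10:117710709-117711008 (minus strand), Trp53 at chr11:69580109-69580408 (plus strand) and Phlda3 at chr1:135765835-135766134 (plus strand). Phlda3 is shown because it rose steeply and its window holds no exact decamer.
Rps27l: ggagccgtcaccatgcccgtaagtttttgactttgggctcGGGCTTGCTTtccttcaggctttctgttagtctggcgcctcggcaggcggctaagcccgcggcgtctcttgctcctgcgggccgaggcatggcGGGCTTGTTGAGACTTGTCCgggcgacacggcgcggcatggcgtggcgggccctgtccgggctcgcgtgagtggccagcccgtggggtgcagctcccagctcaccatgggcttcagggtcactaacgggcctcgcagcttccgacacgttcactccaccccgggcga
Aen: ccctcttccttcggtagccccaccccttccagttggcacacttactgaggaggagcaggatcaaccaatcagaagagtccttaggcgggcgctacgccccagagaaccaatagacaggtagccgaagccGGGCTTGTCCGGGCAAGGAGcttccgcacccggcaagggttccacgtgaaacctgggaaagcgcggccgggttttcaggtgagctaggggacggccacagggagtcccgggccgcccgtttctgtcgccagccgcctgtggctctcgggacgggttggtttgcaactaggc
Ccng1: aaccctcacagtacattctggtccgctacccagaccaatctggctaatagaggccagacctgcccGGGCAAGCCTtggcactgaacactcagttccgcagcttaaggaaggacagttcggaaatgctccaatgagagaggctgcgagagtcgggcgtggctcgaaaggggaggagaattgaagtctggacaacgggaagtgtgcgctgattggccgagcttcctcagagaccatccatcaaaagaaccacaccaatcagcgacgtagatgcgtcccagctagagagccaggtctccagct
Mdm2: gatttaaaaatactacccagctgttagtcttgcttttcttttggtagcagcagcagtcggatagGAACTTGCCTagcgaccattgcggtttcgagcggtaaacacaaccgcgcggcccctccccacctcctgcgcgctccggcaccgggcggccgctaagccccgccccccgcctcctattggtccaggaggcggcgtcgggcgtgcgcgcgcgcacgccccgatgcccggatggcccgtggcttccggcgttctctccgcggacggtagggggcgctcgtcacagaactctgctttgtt
Trp53: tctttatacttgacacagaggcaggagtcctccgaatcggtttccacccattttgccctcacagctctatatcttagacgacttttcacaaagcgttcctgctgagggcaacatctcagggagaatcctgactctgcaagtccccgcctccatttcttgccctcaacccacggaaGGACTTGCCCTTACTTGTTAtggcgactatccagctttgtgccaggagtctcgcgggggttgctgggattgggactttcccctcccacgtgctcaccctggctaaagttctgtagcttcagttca
Phlda3: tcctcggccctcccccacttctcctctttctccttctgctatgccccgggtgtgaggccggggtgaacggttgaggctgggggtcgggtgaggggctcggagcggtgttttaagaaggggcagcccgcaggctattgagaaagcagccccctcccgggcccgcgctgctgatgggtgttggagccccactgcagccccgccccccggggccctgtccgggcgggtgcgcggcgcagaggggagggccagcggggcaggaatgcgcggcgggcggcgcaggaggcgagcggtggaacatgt

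The printed Rps27l window held 2 exact decamers, and its full site, which begins 117 bases before that window's start, had 1 mismatch. The other Rps27l window (chr9:66945836-66946135), around the gene's most upstream annotated start, held no exact decamer and no full site. The printed window surrounds a start farther inside the gene, so its sites lie downstream of the most upstream start. The full sites of Aen and Trp53 had 3 mismatches each and began 121 and 75 bases before the start. In the other Aen window the same site begins 10 bases after the start. Ccng1 had a single decamer that begins 185 bases before the start, and Mdm2 a single decamer that begins 186 bases before it.

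RefSeq windows were found for 28 of the 35 members, 37 windows in all because some genes have several starts. Zmat3, Trp53inp1, Perp, Xpc, Rrm2b, Ddb2 and Pvt1 had none in the table. An exact decamer stood in 11 of the 37 windows (29.7%), against 8.36% of all 32851 windows of the same length. A full site stood in 4 of them (10.8%), against 0.572% of all windows. These 4 windows belong to 3 genes, since both Aen windows overlap and hold the same site, which the window counts thus include once for each window. The members were picked as known p53 targets, so these shares describe the set. Of the 10 members with an exact decamer in a window, 7 rose (Aen, Rps27l, Ccng1, Mdm2, Polk, Ppm1d and Sesn1) and 3 were not called (Trp53, Ei24 and Gadd45a). Of the 18 with a window and no exact decamer, 12 rose, 1 fell, 4 were not called and 1 was not tested. Both counts lay near the 24 of 34 tested members that rose, against 21.7% of all tested genes. Members with and without an exact decamer thus rose about as often. A match is a stretch of letters and was not read as a bound site, and sites farther from the start, in introns for example, were not searched.

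**Figure D2:**
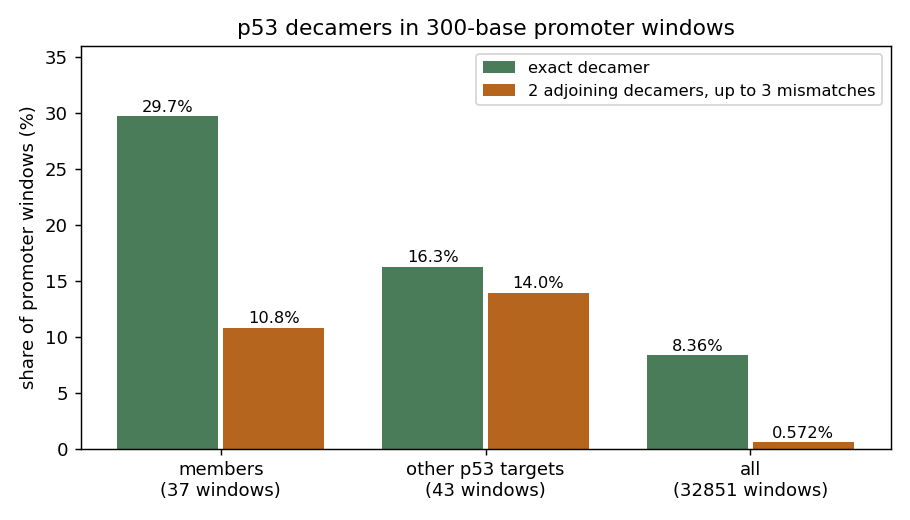
Share of 300-base RefSeq promoter windows that hold an exact p53 decamer (green) or a pair of adjoining decamers with up to 3 mismatches (orange), for the members, for other p53 targets from a list named below, and for all windows. Decamers stood in 29.7% of member windows and 8.36% of all windows.

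Among the regulators, both partners that hold p53 down rose, and Trp53 did not pass the test. Mdm2, the ubiquitin ligase that marks p53 for destruction and is itself a p53 target, stood at 234, 222 and 250 CPM in KO libraries, against 159, 159 and 161 CPM in WT libraries. Its log2 change was 0.56 ± 0.06 (edgeR adjusted p = 0.000262), with no overlap between the groups. Mdm4, which binds p53 and blocks its activity, stood at 330, 326 and 325 CPM in KO, against 252, 222 and 232 CPM in WT, a log2 change of 0.47 ± 0.06 (edgeR adjusted p = 0.000642). The KO libraries of Mdm4 lay almost on a single value, above every WT library. As background, PRMT5 is known to affect the splicing of Mdm4 in other cells; counts summed over the gene do not show which isoforms were made.

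Trp53 stood at 16.6, 11.8 and 17.5 CPM in KO, against 10.9, 23.5 and 12.3 CPM in WT. The groups overlapped, because WT replicate 2 held the highest value of all 6 libraries and KO replicate 2 was below WT replicate 3. The log2 change was -0.02 ± 0.30 (95% interval -0.72 to 0.67, edgeR adjusted p = 0.956), an interval that takes in changes of some size in both directions. Without WT replicate 2 it was 0.39 (edgeR adjusted p = 0.101), and over 16 alternatives it ran from -0.48 to 0.39, with the sign changed in 7 of them, upper-quartile and spike-in scaling included. Reads of Trp53 are also open to mixing with its processed pseudogene Trp53-ps on chromosome 17, which matched 662 bases of the longest Trp53 transcript (20.2%) at up to 97.7% identity; how the authors counted reads that map to both is not given in the sources used here. Usp7, which removes ubiquitin from Mdm2 and from p53, stood at 292, 261 and 281 CPM in KO, against 345, 278 and 303 CPM in WT. Its groups overlapped and its log2 change of -0.15 ± 0.09 did not pass (edgeR adjusted p = 0.205), while without WT replicate 2 it did, at -0.23 (edgeR adjusted p = 0.0419).

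The arrest and checkpoint genes divided, with 4 of 8 higher, Fbxw7 lower and 3 not called, and a median log2 change of 0.33. Zmat3, a zinc finger protein that binds RNA, had the largest change of the group. It stood at 25.8, 25.8 and 26.1 CPM in KO, against 6.49, 6.90 and 5.89 CPM in WT, a log2 change of 2.01 ± 0.09 (edgeR adjusted p = 1.62e-05). The KO libraries of Zmat3 differed by 0.723% (coefficient of variation), the lowest KO value of any member. Ccng1, cyclin G1, which brings a phosphatase to Mdm2, stood at 805, 810 and 823 CPM in KO, against 321, 309 and 322 CPM in WT. Its mean was 2.56 times the WT mean, and its adjusted p was the lowest of all members (edgeR adjusted p = 6.92e-06). Plk2, a polo-like kinase that answers to stress, stood at 63.7, 60.9 and 66.7 CPM in KO, against 34.9, 30.5 and 26.9 CPM in WT (log2 1.05 ± 0.10, edgeR adjusted p = 0.000208). In these 3 genes every KO library lay far above every WT library.

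Ppm1d encodes a phosphatase that reverses the phosphorylation of p53 and of the kinase Atm, and so ends the response. It stood at 57.4, 54.95 and 57.1 CPM in KO, against 47.0, 44.5 and 45.2 CPM in WT, a log2 change of 0.31 ± 0.06 (edgeR adjusted p = 0.00444). This was the smallest rise among the called members, and it no longer passed with spike-in scaling (edgeR adjusted p = 0.0959), from KO replicate 2 alone (0.123) or after adjustment for the level of Y-linked reads (0.0869). Fbxw7, the part of a ubiquitin ligase that picks cyclin E and Myc for destruction, was the only member that fell. It stood at 102, 107 and 113 CPM in KO, against 132, 146 and 156 CPM in WT, a log2 change of -0.43 ± 0.07 (edgeR adjusted p = 0.00323). The groups did not overlap, but the call was lost with spike-in scaling (log2 -0.30, edgeR adjusted p = 0.295), from KO replicate 2 alone (0.0727) and after adjustment for Y-linked reads (0.0621).

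Btg2, Plk3 and Gadd45a were the 3 arrest genes that were not called. Btg2, an antiproliferative protein that recruits deadenylases to mRNA, stood at 47.0, 43.1 and 50.5 CPM in KO, against 44.4, 24.5 and 41.3 CPM in WT. WT replicate 2 was the lowest of all 6 libraries, and the log2 change of 0.35 ± 0.20 did not pass (edgeR adjusted p = 0.204), though it passed with no filter on low counts (0.0315). Plk3, a sister kinase of Plk2, stood at 10.9, 8.32 and 10.4 CPM in KO, against 11.3, 12.2 and 12.6 CPM in WT. Although the groups did not overlap, its log2 change of -0.29 ± 0.13 did not pass (edgeR adjusted p = 0.107); after adjustment for Y-linked reads it was -0.58 (0.0479). Gadd45a, a stress sensor of the cell cycle, stood at 6.39, 6.81 and 8.59 CPM in KO, against 6.06, 5.26 and 7.04 CPM in WT, groups that overlapped (log2 0.25 ± 0.17, edgeR adjusted p = 0.267). Of the 2 polo-like kinases, Plk2 thus rose and Plk3 did not pass the test.

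**Figure D3:**
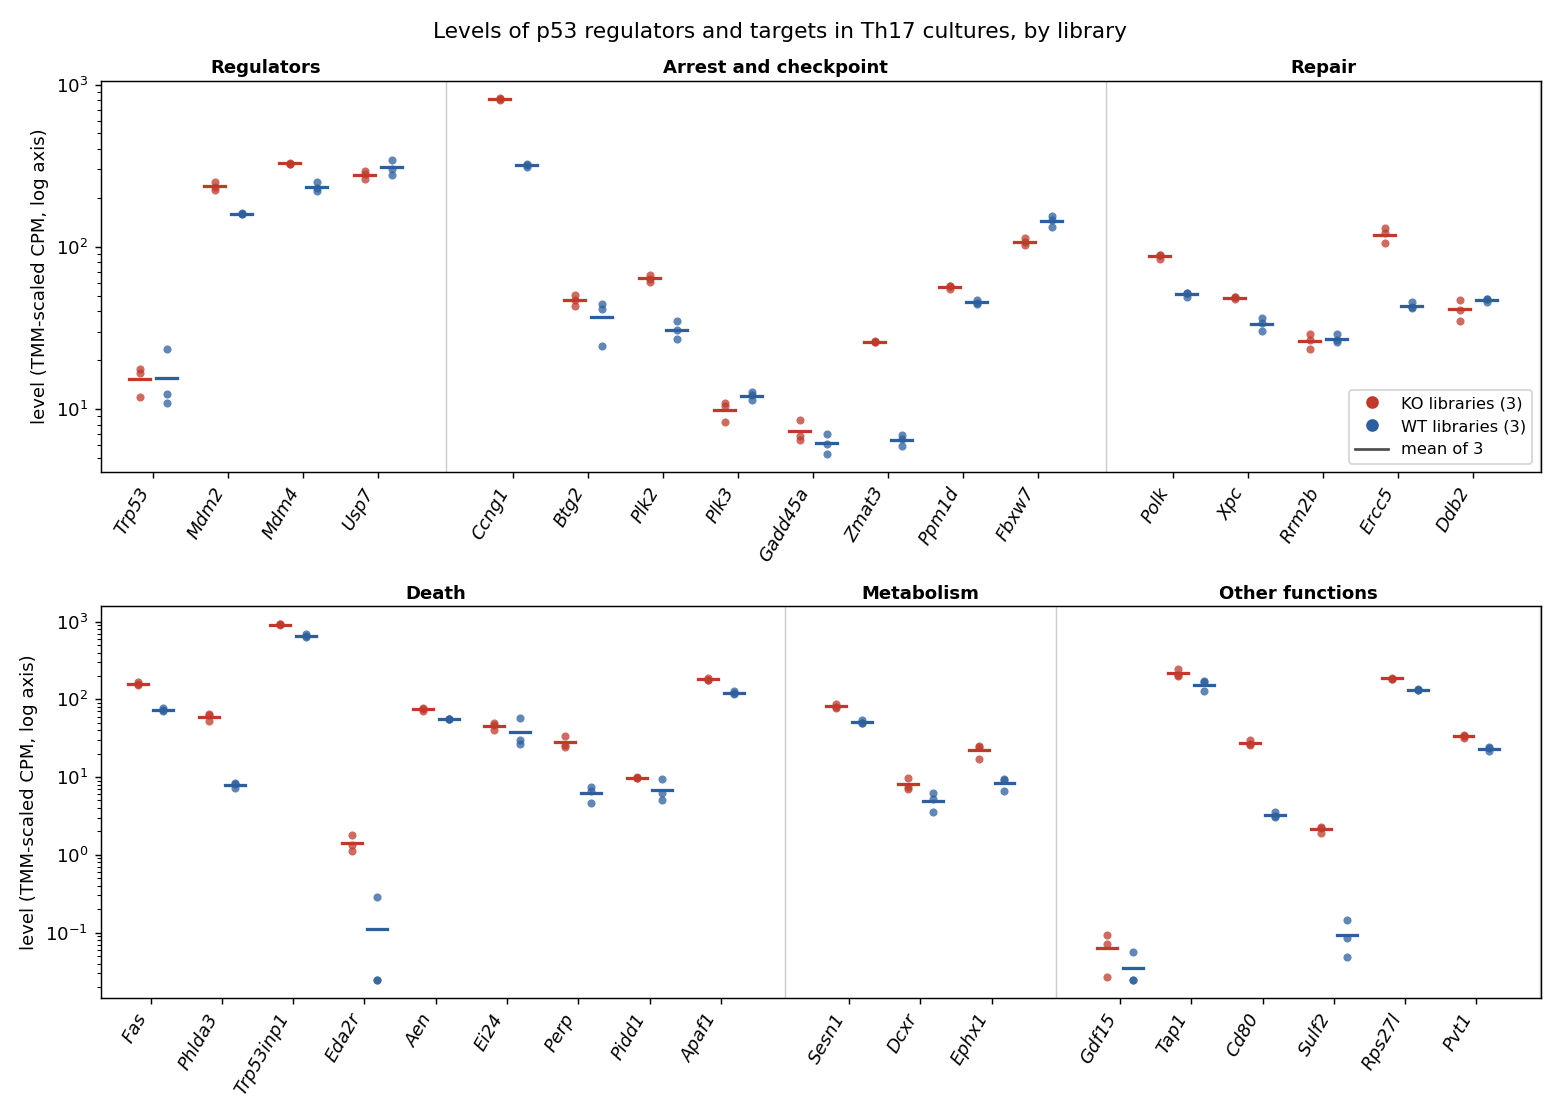
Level of each member in each library (TMM-scaled CPM, log axis), with KO libraries in red to the left of WT libraries in blue and a bar at the mean of 3. KO and WT points are well apart for Ccng1, Zmat3, Ercc5, Fas, Phlda3, Perp, Cd80 and Sulf2, and a single WT point stands away from the other WT points for Trp53, Btg2, Ei24 and Eda2r.

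Of the 5 repair genes, 3 rose and 2 were not called, with a median log2 change of 0.53. Ercc5, an endonuclease that cuts beside damaged bases in nucleotide excision repair, stood at 121, 105 and 131 CPM in KO, against 41.7, 45.8 and 42.6 CPM in WT, a log2 change of 1.46 ± 0.09 (edgeR adjusted p = 3.86e-05). Polk, a polymerase that copies past lesions, stood at 84.4, 88.4 and 89.0 CPM in KO, against 51.9, 49.3 and 51.6 CPM in WT (log2 0.78 ± 0.06, edgeR adjusted p = 6.48e-05). Xpc, which finds the lesion in nucleotide excision repair, stood at 48.8, 47.4 and 48.9 CPM in KO, against 30.1, 36.3 and 33.8 CPM in WT (log2 0.53 ± 0.08, edgeR adjusted p = 0.00168). None of these 3 genes had an overlap between the groups, and Xpc lost its call when KO replicate 2 stood alone (0.0619).

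The other two repair genes did not pass the test, and their groups overlapped. Rrm2b, a ribonucleotide reductase subunit that supplies nucleotides for repair, stood at 29.1, 26.6 and 23.3 CPM in KO, against 25.9, 28.8 and 26.7 CPM in WT, and its log2 change of -0.04 ± 0.10 had a 95% interval of -0.27 to 0.19. Ddb2, which detects ultraviolet damage and is known as a p53 target mainly from human cells, stood at 41.0, 47.2 and 35.1 CPM in KO, against 47.3, 45.9 and 47.9 CPM in WT. Its KO libraries spread far more than its WT libraries (log2 -0.20 ± 0.11, edgeR adjusted p = 0.181), and without KO replicate 2 it was called lower, at -0.30 (0.0431). Exons of both overlap a gene on the opposite strand, by 734 bases for Rrm2b and by 652 bases for Ddb2 (Acp2), and 23.0% of the longest Rrm2b transcript matched a processed pseudogene, Gm8616. Whether the counting used the strand is not given in the sources used here.

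Cell death genes rose in 7 of 9 cases with none lower, and their median log2 change was 0.56. They include 3 of the 5 largest changes of the whole set. Phlda3, a small protein that competes with Akt for membrane lipids and so weakens survival signalling, stood at 62.0, 52.97 and 64.3 CPM in KO, against 7.31, 8.38 and 8.15 CPM in WT. Its mean in KO was 7.53 times that in WT (log2 2.91 ± 0.10, edgeR adjusted p = 7.32e-06). Perp, a membrane protein of cell junctions tied to p53-driven death, stood at 25.5, 24.1 and 34.1 CPM in KO, against 4.67, 6.61 and 7.46 CPM in WT (log2 2.16 ± 0.20, edgeR adjusted p = 0.000193). The groups were far apart in both genes.

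Both receptors of the TNF receptor family in the set rose. Fas, the receptor through which Fas ligand kills activated T cells, stood at 159, 167 and 153 CPM in KO, against 77.7, 72.3 and 70.3 CPM in WT, a log2 change of 1.12 ± 0.06 (edgeR adjusted p = 2.72e-05). Eda2r, an X-linked receptor of the TNF receptor family that binds an ectodysplasin isoform, was close to the detection limit in WT. It had 76, 42 and 58 counts in KO libraries, against 10, 1 and 1 counts in WT libraries, where 3 counts is what a count of 0 would allow. The log2 change of 3.74 ± 0.64 (95% interval 2.29 to 5.28, edgeR adjusted p = 0.00274) rests on these few WT counts and was 5.69 without WT replicate 1, the library with 10 of them. It was not called from KO replicate 2 alone (0.0841) or after adjustment for Y-linked reads (0.0502).

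Smaller rises were seen for the apparatus of death inside the cell. Apaf1, the scaffold of the apoptosome, stood at 179, 186 and 175 CPM in KO, against 128, 117 and 122 CPM in WT (log2 0.56 ± 0.06, edgeR adjusted p = 0.000231). Trp53inp1, which promotes p53 activity and autophagy, stood at 923, 921 and 894 CPM in KO, against 629, 656 and 698 CPM in WT (log2 0.47 ± 0.05, edgeR adjusted p = 0.000413). Aen, a nuclease that acts in apoptosis and whose window is printed above with its full site, stood at 75.2, 71.4 and 76.3 CPM in KO, against 56.7, 55.05 and 56.6 CPM in WT (log2 0.41 ± 0.06, edgeR adjusted p = 0.00108). None of the 3 had an overlap between the groups, and Aen was not called from KO replicate 2 alone (0.0590).

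Ei24 and Pidd1 were not called, and in both WT replicate 2 was the highest WT library, above every KO library for Ei24 and just below them for Pidd1. Ei24, a protein of the endoplasmic reticulum linked to autophagy, stood at 46.1, 40.8 and 49.5 CPM in KO, against 26.7, 58.1 and 30.2 CPM in WT (log2 0.25 ± 0.27, edgeR adjusted p = 0.507). Pidd1, the scaffold of the PIDDosome that activates an initiator caspase, stood at 9.99, 9.80 and 9.77 CPM in KO, against 5.10, 9.36 and 6.23 CPM in WT (log2 0.51 ± 0.21, edgeR adjusted p = 0.0872). For Pidd1 every KO library still lay above every WT library. Without WT replicate 2, both were called higher, Ei24 at log2 0.67 (0.00114) and Pidd1 at log2 0.79 (0.00199). Pidd1 was also called with DESeq2 (0.0466), with spike-in scaling (0.0276) and with no filter (0.0204).

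All 3 metabolic targets rose, with a median log2 change of 0.69. Sesn1, a sestrin that restrains the growth kinase mTORC1, stood at 77.0, 79.8 and 86.9 CPM in KO, against 49.6, 54.1 and 49.1 CPM in WT (log2 0.67 ± 0.07, edgeR adjusted p = 0.000323). Ephx1, the epoxide hydrolase of the endoplasmic reticulum, stood at 24.6, 17.1 and 25.1 CPM in KO, against 9.54, 6.61 and 9.08 CPM in WT (log2 1.41 ± 0.19, edgeR adjusted p = 0.00107). The groups did not overlap for either gene, though for Ephx1 replicate 2 was the lowest library in both genotypes, and the call was lost from KO replicate 2 alone (0.0526). Dcxr, a reductase of sugars and dicarbonyls, stood at 7.42, 6.97 and 9.73 CPM in KO, against 3.51, 5.21 and 6.16 CPM in WT. Its log2 change of 0.69 ± 0.23 passed narrowly (edgeR adjusted p = 0.0409), and the call was lost when KO replicate 1 (0.0751), KO replicate 2 (0.0548), KO replicate 3 (0.125) or WT replicate 1 (0.0780) was left out, as well as from KO replicate 2 alone (0.351) and after adjustment for Y-linked reads (0.426).

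Of the 6 members with other functions all 5 that could be tested rose. Sulf2, an enzyme that trims sulfate from heparan sulfate outside the cell, had 93, 86 and 82 counts in KO libraries, against 3, 2 and 6 counts in WT libraries. On the level scale these were 2.23, 2.28 and 1.90 CPM in KO, against 0.0850, 0.0491 and 0.147 CPM in WT. The log2 change, 4.46 ± 0.32 (95% interval 3.76 to 5.25, edgeR adjusted p = 5.97e-05), was the largest of the set and rests on these few WT counts. Gdf15, a secreted relative of TGF-beta and a p53 target in many tissues, had 3, 1 and 4 counts in KO, against 2, 1 and 1 counts in WT, so no difference was detectable at this depth.

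Cd80, the costimulatory ligand of CD28 and CTLA-4, stood at 26.1, 26.6 and 29.9 CPM in KO, against 3.09, 3.59 and 3.19 CPM in WT. The KO mean was 8.37 times the WT mean (log2 3.06 ± 0.11, edgeR adjusted p = 7.32e-06), and the groups were far apart. Cd80 is best known from B cells and myeloid cells, and some markers of both were higher in KO. Of 6 B cell markers, all tested, 4 were called higher and none of the 6 was at 0 in all libraries; their summed level was 59.4, 42.5 and 121 CPM in KO, against 25.1, 4.08 and 10.99 CPM in WT. Of 8 myeloid and dendritic cell markers 4 were called higher and Siglech was at 0 in every library; their summed level was 16.3, 13.3 and 39.3 CPM in KO, against 8.44, 3.93 and 5.15 CPM in WT. The B cell and myeloid sums were at least 2 times as high in KO replicate 3 as in the other KO libraries. Cd80 was also highest in KO replicate 3, with a coefficient of variation of 7.45% among the KO libraries. Sulf2 was lowest in KO replicate 3. Some markers of other cells were also higher in KO. Of 5 gamma delta T cell markers 4 were tested and called higher, with summed levels of 57.2 to 102 CPM in KO and 12.6 to 16.5 CPM in WT. Of 8 granulocyte and mast cell markers 3 were tested and called higher, with sums of 8.37 to 41.8 CPM in KO and 0.0850 to 0.393 CPM in WT. Both CD8 markers were called higher, with sums of 14.7 to 17.2 CPM in KO and 5.58 to 7.88 CPM in WT. The sums of NK and innate lymphoid markers were 23.4 to 41.4 CPM in KO and 18.01 to 22.6 CPM in WT. In that list Klra4 and Eomes were called higher and Klre1 lower (mean 2.46 CPM in KO and 11.4 CPM in WT). Sums of stromal markers were 202 to 238 CPM in KO and 138 to 156 CPM in WT. Most of each stromal sum was Pecam1, called higher (mean 210 CPM in KO and 135 CPM in WT), while Epcam was not called and the others were not tested. In WT replicate 2 the B cell and myeloid sums were at their lowest, and Cd80 was at its WT highest. The part of these cells in the results for Cd80, Sulf2 and the other members was not tested.

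Rps27l, a relative of a ribosomal protein, is known in human cells to be induced by p53, and a window at its inner start is printed above. Rps27l stood at 189, 184 and 184 CPM in KO, against 131, 135 and 130 CPM in WT (log2 0.49 ± 0.05, edgeR adjusted p = 0.000215). Pvt1, a long noncoding RNA beside Myc, stood at 31.7, 35.2 and 33.6 CPM in KO, against 23.4, 24.6 and 21.5 CPM in WT (log2 0.53 ± 0.08, edgeR adjusted p = 0.00184). Tap1, which carries peptides to MHC class I molecules, stood at 245, 207 and 200 CPM in KO, against 170, 129 and 166 CPM in WT (log2 0.49 ± 0.12, edgeR adjusted p = 0.0148). The groups did not overlap for any of these 3. Tap1 lost its call without KO replicate 1 (0.0597), from KO replicate 2 alone (0.171) and after adjustment for Y-linked reads (0.195). Exons of Tap1 overlap Psmb9 on the opposite strand by 212 bases, and exons of Pvt1 overlap small RNA genes on the same strand by 341 bases.

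Levels can be set against each other between genes only per length, here as CPM per kilobase of the deposited gene length. On that scale Rps27l led in both genotypes, at 323 CPM per kilobase in KO and 230 in WT. Ccng1 came next in KO at 231, ahead of Trp53inp1 at 168, while in WT Trp53inp1 at 122 was ahead of Ccng1 at 90.3. Neither pair of neighbours overlapped, since the libraries of both genes varied by 5.24% or less within a genotype. Phlda3 was at rank 9 of 35 in KO at 41.7 and at rank 23 in WT at 5.54. Trp53 was low in both, at 4.68 in KO and 4.76 in WT. Summed over all 35 genes, the level was 4358 ± 62.1 CPM in KO and 2870 ± 55.2 CPM in WT (SD, n = 3 each), and Trp53inp1, Ccng1, Mdm4 and Usp7 made up 53.5% of the KO sum.

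Other genes of the pathway were read from the same fit, from lists that were also chosen with earlier results known. Of 36 further p53 targets 33 could be tested, and 18 rose, 6 fell and 9 were not called, against 21.7% higher and 20.9% lower over all tested genes. Their median log2 change was 0.44, and the falls were near the background share. The 6 with the lowest p were Psrc1, Ak1, Bbc3, Bax, Tnfrsf10b and Fdxr. Psrc1, which binds mitotic microtubules, stood at 131, 133 and 145 CPM in KO, against 21.04, 26.0 and 26.6 CPM in WT (log2 2.47 ± 0.10). Ak1, an adenylate kinase, stood at 7.54, 6.23 and 10.2 CPM in KO, against 0.453, 0.368 and 0.466 CPM in WT (log2 4.21 ± 0.25). The death genes Bbc3, Bax and the death receptor gene Tnfrsf10b rose by log2 2.41 ± 0.20, 0.99 ± 0.08 and 1.61 ± 0.14. Fdxr, a reductase that passes electrons in mitochondria and is known as a p53 target from human cells, fell, at 18.7, 20.3 and 17.5 CPM in KO, against 39.2, 49.1 and 41.6 CPM in WT (log2 -1.20 ± 0.11, edgeR adjusted p = 0.000148). Windows of these further targets held an exact decamer in 16.3% of 43 cases and a full site in 13.95%.

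Of 31 further regulators 28 could be tested, and 5 rose, 6 fell and 17 were not called, against 21.7% higher and 20.9% lower over all tested genes, so that these regulators were called at about the background rate. Their median log2 change was 0.01. The 6 with the lowest p were Trp53bp1, Ttc5, Prkdc, Atm, Topors and Hipk2. Trp53bp1, which binds p53 and chromatin at DNA breaks, rose by log2 0.67 ± 0.06, and the breakage kinases Atm and Prkdc rose by 0.59 ± 0.08 and 0.43 ± 0.05. Ttc5, a cofactor that aids the acetylation of p53, rose by 0.62 ± 0.06. Atm stood at 241, 251 and 204 CPM in KO, against 158, 152 and 151 CPM in WT, with no overlap. Hipk2, a kinase of p53, and Topors, a ligase for p53, fell by 0.61 ± 0.10 and 0.31 ± 0.05 on the log2 scale; with spike-in scaling neither passed (0.0687 for Hipk2 and 0.612 for Topors). Hipk2 also lost its call after adjustment for Y-linked reads (0.0732), and Topors from KO replicate 2 alone (0.0508).

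Leaving out a single library changed the call of Usp7, Ei24 and Pidd1 (WT replicate 2), Ddb2 (KO replicate 2), Tap1 (KO replicate 1) and Dcxr (any KO library or WT replicate 1). WT replicate 2 differed from the mean of the other WT libraries by more than 1 log2 unit for 4 members, Eda2r (-2.65), Sulf2 (-1.24), Ei24 (1.03) and Trp53 (1.02), and for 6.16% of all tested genes. Among the 24 members that rose, KO replicate 2 was the lowest KO library for 13 and KO replicate 3 the highest for 14, against 34.7% and 37.3% of all genes that rose. When KO replicate 2 stood alone for its genotype, that library is assumed to vary as the WT libraries do, and 17 members were called higher, against 8.45% of all tested genes in that fit. After adjustment for the level of Y-linked reads 20 were called higher, against 11.4% of all tested genes. That adjustment also leans on KO replicate 2, so it is not a separate check. All 24 risen members had a positive log2 change in each alternative in which they were fitted, and 17 kept their call in every one.

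**Figure D4:**
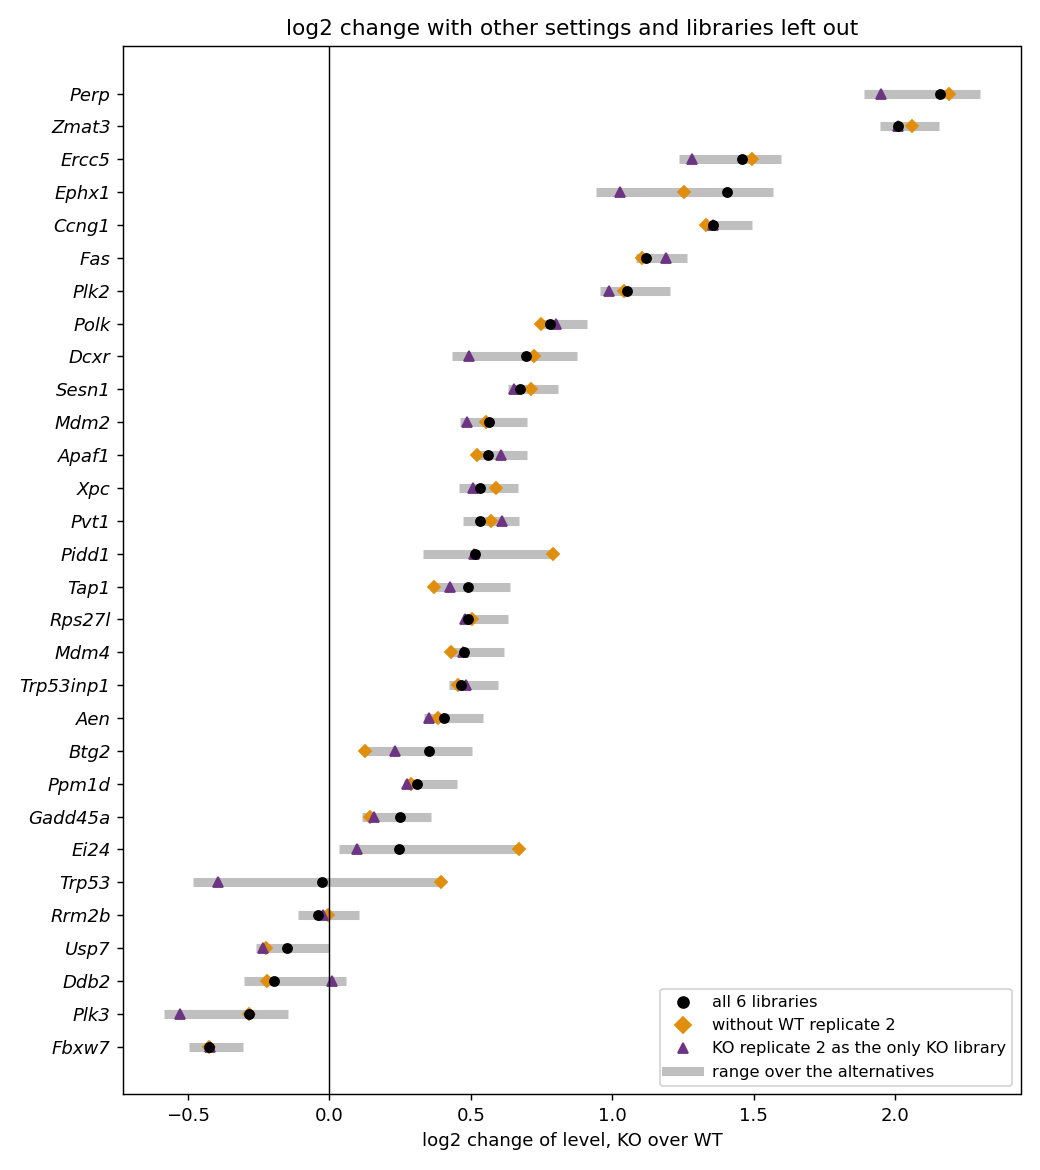
Log2 change, KO over WT, for the 30 tested members with an estimate below 2.5, with all 6 libraries (black), without WT replicate 2 (orange) and from KO replicate 2 alone against WT (purple), over the range of all alternatives (grey). Trp53 and Ei24 move most when WT replicate 2 is left out, to 0.39 and 0.67, and every risen member stays right of 0.

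The authors' deposited table, which gives its own log2 change and adjusted p, counted 25 of the 34 members higher and 1 lower. How many of all genes passed in that table was not counted, so these numbers have no background share beside them. In the authors' deposited table Pidd1 is the added member, with an adjusted p of 0.0431, and the log2 changes of Phlda3, Cd80 and Ccng1 were 2.91, 3.06 and 1.36. All 35 members could be placed in GENCODE M21 on GRCm38, on 16 chromosomes. Exons of 2 members overlap another gene on the same strand, exons of 8 overlap a gene on the opposite strand, and 5 share a near-identical stretch with another gene (at least 95% identity over at least 100 bases), Trp53 and Rrm2b over the longest part.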

How the data were processed

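Members, groups and the further pathway lists were chosen with earlier results of these data known. The authors deposited raw counts per gene for 6 libraries, made with a stranded kit after ribosomal RNA removal per the labels' protocols. STAR, featureCounts, DESeq2, DESeq and GRCm38.p3 are named in the submitters' processing notes, without roles. The authors also deposited a normalized signal (counts divided by a factor per sample), a log2 fold change, an adjusted p-value and a gene length whose derivation is not stated; these signals entered no fit.

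Spike-in entries (92) were removed. Genes passing filterByExpr (minimum count 10, minimum total 15) were fitted by the quasi-likelihood test of edgeR 4.0.16 in R 4.3.3 on counts, with TMM scaling, genotype as the only term and Benjamini-Hochberg adjustment over all 16006 genes; the test was run on simulated data first. The SE is the absolute coefficient divided by the square root of F. Floors of 3 counts (0.0695 to 0.0850 CPM) cover counting error only. All 35 members, Prmt5 and the 6 genes of lowest p in each further list are named by rule; other named genes were chosen after their values were seen. Alternatives were DESeq2 1.42.0, limma 3.58.1 (voom), RLE, upper-quartile and spike-in scaling, no filter, a mean of 1 CPM, a replicate block, each library left out, KO replicate 2 alone and a Y-linked covariate. Near-identical stretches came from blastn 2.17.0+ (megablast) of the longest transcripts.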

Additional observations from a re-analysis of the deposited data

How the results depend on the processing

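Over 16 alternatives (15 for Eda2r, which a filter at a mean of 1 CPM removes), the log2 changes of the 34 members kept their side of the threshold in 514 cases, gained a call in 9, lost one in 20 and reversed with a call in 0. In 502 of the 514 the direction was also kept, and in 12 it changed without a call (Trp53 in 7, Rrm2b in 3 and Ddb2 in 2). The count of genes called, 6809 with all libraries, was 4448 with spike-in scaling (3085 higher and 1363 lower), 2752 from KO replicate 2 alone against WT and 3460 after adjustment for Y-linked reads. Spike-in scaling moved the median log2 change of all tested genes to 0.14 and that of the members to 0.67. Members called lower numbered 0 with spike-in scaling, against 1 with all libraries. Of all tested genes 8.52% and 20.9% were called lower in these fits. With a library left out, members called lower numbered from 1 to 2. Ddb2 was added without KO replicate 2 and Usp7 without WT replicate 2, where 16.9% and 21.2% of all tested genes were called lower. The further regulators called numbered 6 with spike-in scaling and 6 after adjustment for Y-linked reads, against 11 with all libraries. Of all tested genes 27.8%, 21.6% and 42.5% were called in these fits. With a library left out the regulators called ran from 7 (without KO replicate 1) to 14 (without WT replicate 2). Of all tested genes 31.7% and 42.7% were called in those fits. The cause of these shifts was not tested. Deviations of same-numbered KO and WT libraries from their group means correlated at -0.024, 0.006 and 0.082. Those of libraries with different numbers correlated at -0.057 to 0.045. Such weak values cannot tell whether the replicate numbers pair the samples. With a replicate block, 6190 genes, 24 members higher and 1 lower were called. Of all tested genes 20% were called higher and 18.7% lower in that fit. Depth limits Eda2r, Sulf2 and Gdf15, whose WT libraries held from 1 to 10 counts.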
